A study of Mus musculus with 30 samples.

Results

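The cytosolic ribosomal protein genes were described in 30 mice, in the soleus, a calf muscle rich in slow fibres that works against gravity. Members were the genes of the count table whose symbol follows the Rpl or Rps naming of the large and small ribosomal subunit, with or without the suffixes of close paralogues, together with Rplp0, Rplp1, Rplp2 and Rpsa. Genes named as pseudogenes were not taken, and a member needed 10 or more counts in at least 7 of the 30 libraries. Of the 56980 genes in the table, 87 matched by name and 84 met the count limit, 52 of the large and 32 of the small subunit. Rpl10l, Rpl39l and Rps12l1 did not, with at most 7 counts in any library.

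The mice were on a C57BL/6J background and 3 to 4 months old. There were 8 mKO mice under hindlimb unloading, 7 control mice under hindlimb unloading, 7 ambulatory mKO mice and 8 ambulatory control mice. Of these, 5, 3, 2 and 5 were female, in the same order, and the rest were male. Each treatment lasted 4 weeks. The mKO mice lacked the genes of both catalytic AMPK subunits, Prkaa1 and Prkaa2, in skeletal muscle, and AMPK is the kinase that senses low cellular energy. Controls carried the floxed genes without Cre, so the presence of Cre and the loss of the kinase cannot be told apart, and the promoter that drives Cre is not named in the labels used here. Nothing in the labels says that any mice were pooled. Replicate numbers used below are the order of the samples within each group.

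The cytosolic ribosome joins a small subunit, which reads the mRNA, to a large subunit, which forms the peptide bond, and each is built from ribosomal RNA and ribosomal proteins named Rps or Rpl. In mammals most of these mRNAs begin with a tract of pyrimidines at the 5′ end, the TOP motif, through which mTORC1 and the RNA-binding protein Larp1 set how well they are translated. AMPK is known to restrain mTORC1, and muscle that is not loaded is known to synthesise less protein. Striated muscle also makes Rpl3l, a paralogue of Rpl3, the protein that reaches closest to the peptidyl transferase centre.

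The start sites of 5 members that the results below turn on are shown to let the TOP-like tract be read. Each window runs from 20 bases before to 20 bases from the annotated start (RefSeq, GRCm38.p6), 5′ to 3′ on the strand of the gene. Capitals mark the longest run of C or T where it holds at least 7 bases.
Rps27: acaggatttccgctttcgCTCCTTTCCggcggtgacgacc
Rps25: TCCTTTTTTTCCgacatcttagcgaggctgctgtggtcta
Rpl22l1: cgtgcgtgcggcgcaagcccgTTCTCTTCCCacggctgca
Rpl12: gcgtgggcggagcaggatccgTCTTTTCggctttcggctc
Rpl3l: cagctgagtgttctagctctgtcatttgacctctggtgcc

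The windows lie at chr3:90213629-90213668 (minus strand) for Rps27, chr9:44407694-44407733 for Rps25, chr3:28805488-28805527 for Rpl22l1, chr2:32961692-32961731 for Rpl12 and chr17:24727806-24727845 for Rpl3l, the last 4 on the plus strand. The run was 9 bases long in Rps27 and spanned the annotated start. It was 10 bases long in Rpl22l1 and 7 in Rpl12, and in both it began 1 base after the first transcribed base. In Rps25 it was 12 bases long and lay before the annotated start. The Rpl3l window held no run over 5 bases. RefSeq windows were found for 62 of the 84 members, at 74 starts, and 40 of these (54.1%) held a run of at least 7 pyrimidines on the gene's strand, against 24.3% of 32851 starts of all genes. A C at the annotated start followed by at least 4 pyrimidines was found at 18.9% of member starts and at 2.51% of all starts. A run of letters is a description of these windows, and no matching run says only that the letters are absent from them.

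Libraries held 12.1 to 20.9 M counts. Levels are given as CPM, the count of a gene per M counts of its library after TMM scaling. They are relative levels, so the amount of ribosomal mRNA per muscle was not measured. TMM factors ran from 0.787 in unloaded mKO replicate 8 to 1.64 in ambulatory mKO replicate 2, so CPM is not a plain share of a library's counts. Fewer cells of a type and less RNA per cell cannot be told apart in these whole-muscle libraries. The floxed gene Prkaa2 was lower in mKO mice, with 80.1 ± 18.5 CPM in unloaded mKO mice against 254 ± 73.2 in unloaded controls and 60.3 ± 26.3 CPM in ambulatory mKO mice against 213 ± 28.3 in ambulatory controls (SD, n = 8, 7, 7 and 8). The log2 changes were -1.64 ± 0.24 and -1.89 ± 0.26 (SE, edgeR adjusted p = 0.00192 and 0.000367). Prkaa1, at 17.2 to 25.3 CPM as group means, was not called. All 6 skeletal muscle markers were detected, and their summed level was 84962 to 297159 CPM in 29 libraries. Ambulatory mKO replicate 2 stood apart with 8584 CPM of these markers, 116 CPM of the slow myosin Myh7 and 10327 CPM of 8 adipocyte markers, of which the other 29 libraries held 154 to 2664 CPM. Unloaded mKO replicates 2 and 3 were next with 2452 and 2664 CPM of adipocyte markers.

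The members together took 12051 ± 2138 CPM in unloaded mKO mice, 12105 ± 1328 in unloaded controls, 10386 ± 998 in ambulatory mKO mice and 10619 ± 1135 in ambulatory controls (SD). The group means of their share of all counts were 1.23% in unloaded mKO mice, 1.27% in unloaded controls, 1.04% in ambulatory mKO mice and 1.03% in ambulatory controls. Between genotypes the group means differed by much less than the spread between mice, and between treatments the unloaded means lay 1665 CPM above the ambulatory mean in mKO mice and 1486 CPM above it in controls, with overlapping ranges. Unloaded mKO replicate 1 was the highest library with 16187 CPM, and unloaded mKO replicate 3, an adipocyte-rich library, was the lowest with 8922 CPM. The lowest library depended on the scaling. As a plain share of counts, unloaded mKO replicate 1 was again highest with 1.83%. By that share unloaded mKO replicate 3 held 1.19%, above both ambulatory group means, and ambulatory control replicate 6 was lowest with 0.764%. The sum is a description and was not tested.

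**Figure D1:**
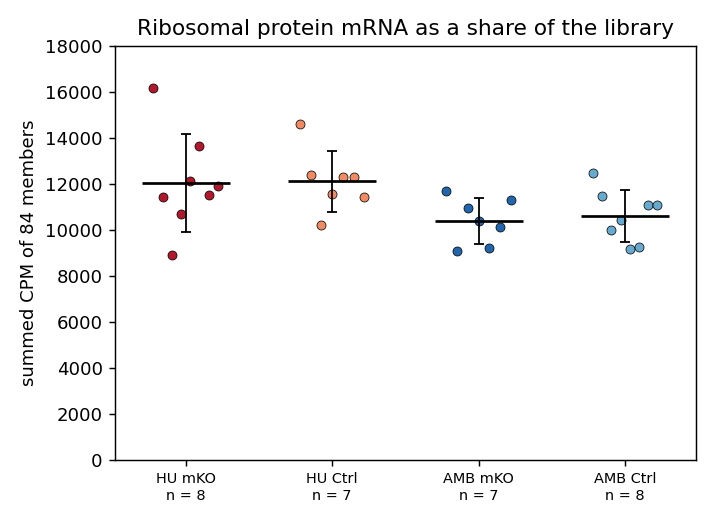
Summed level of the 84 ribosomal protein genes in each mouse, with the group mean (bar) and SD (whiskers). Values are CPM after TMM scaling, which is not the plain share of counts. The unloaded groups average 12051 and 12105 CPM and the ambulatory groups 10386 and 10619 CPM, with overlapping ranges.

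Per kilobase of transcript, the most abundant members were Rplp0 with 457 CPM per kb and Rplp1 with 417, both parts of the stalk that recruits translation factors, followed by Rps2 with 405 and Rps14 with 368, proteins of the small subunit. The least abundant were paralogues: Rpl32l with 1.13 CPM per kb, Rpl6l with 1.37, Rps4l with 2.48 and Rpl7l1 with 9.86 (means over 30 mice). None of the 4 most abundant members passed the test in any comparison. Rpl32l, Rpl6l and Rps4l are annotated as pseudogenes in GENCODE M21, and their reads could be shared with the parent genes. Reads of intronless copies are a general uncertainty here: 61 members have a named pseudogene in the table, but only for Rpl38 did the pseudogene counts exceed 5% of the member's own (5.44%).

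In ambulatory mice, loss of AMPK was not accompanied by a called change in any ribosomal protein gene. A gene was called, and is said to have risen or fallen, where edgeR's quasi-likelihood test gave a Benjamini-Hochberg adjusted p below 0.05 over the 16932 genes tested. No member of 84 was called for mKO against control in ambulatory mice, where 0.0177% of all genes were, and 3 had an unadjusted p below 0.05, where 7.62% of all genes did. DESeq2 and limma also called 0. The median log2 change over the members was -0.06, against 0.02 over all genes, and 19 values were above and 65 below 0. The smallest p belonged to Rps13, a small-subunit protein, with 83.8 ± 19.4 CPM in ambulatory mKO mice and 105 ± 16.5 CPM in ambulatory controls (log2 change -0.35 ± 0.15, SE, edgeR adjusted p = 0.62). Rps4l, Rpl7l1, Rpl23 and Rps20 followed with adjusted p from 0.63 to 0.76. The Rps4l value rested on ambulatory mKO replicate 2, with 9.91 CPM, while the remaining 6 lay between 1.07 and 2.92 CPM; the log2 change was 1.07 with it and 0.34 without it.

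Under unloading the genotypes were again not separated. No member was called for mKO against control, where 0.0177% of all genes were, and none had an unadjusted p below 0.05, where 1.78% of all genes did. DESeq2 and limma also called 0. The median log2 change was 0.02, against 0.01 over all genes, with 54 values above 0. Rpl7l1, a paralogue of Rpl7, had the smallest p, with 23.4 ± 2.04 CPM in unloaded mKO mice and 26.1 ± 2.32 in unloaded controls (log2 change -0.14 ± 0.09, SE, edgeR adjusted p = 0.9999). Rpl22l1 (-0.24), Rps4x (-0.19), Rpl3 (-0.26) and Rpl22 (0.15) followed with the same adjusted p.

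A minority of ribosomal protein mRNAs was called higher under unloading in control mice, and none was called lower. In controls 8 of 84 members rose and 0 fell, where 5.37% of all genes rose and 5.74% fell, 11.1% in all. The share of members called was 9.52%, below the share of all genes called in either direction, and nothing is read from it about the members. The median log2 change over the 84 members was 0.20, against 0.03 over all genes, and 75 members had a value above 0. At an unadjusted p below 0.05 there were 22 members, a share close to the 26.4% of all genes. Those called were Rpl22l1, Rpl30, Rps25, Rpl12, Rpl5, Rps27, Rpl9 and Rpl32l. The count was sensitive to the mice in the fit. It was 5 without any one of unloaded controls 1, 2 or 5 or of ambulatory controls 5 or 7, and 14 when ambulatory mKO 2 alone was left out. It was 13 when unloaded mKO 2 and 3 were left out with it, and 31 by limma with library weights, where 25.1% of all genes were called. As that share moves with the fit, these counts are not set against the 11.1%.

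Under unloading in mKO mice ribosomal protein mRNAs of both subunits rose, again with none called lower. Here 18 of 84 members rose (21.4%) and 0 fell, where 5.3% of all genes rose and 4.75% fell, 10.1% in all. The median log2 change was 0.30, against -0.04 over all genes, and 77 members had a value above 0. At an unadjusted p below 0.05 there were 37 members, where 27.3% of all genes passed. Of the 18, 12 were large-subunit and 6 small-subunit genes. They included Rps27, Rps25, Rpl21, Rpl30, Rpl32, Rpl37, Rps28, Rpl24, Rpl12, Rpl22l1, Rpl5, Rpl36, Rps15a, Rpl10a, Rps18, Rpl23 and Rpl32l. The count was 8 without unloaded mKO replicate 1, the library highest in ribosomal protein mRNA, and 10 when the 2 mKO groups were fitted alone. It was 27 with the letter that ends the sample titles as a covariate and 26 without unloaded mKO replicate 3. It was 23 without the 3 adipocyte-rich libraries, 23 by limma with library weights and 22 by DESeq2. The share of all genes called can move with the fit, so these counts are not set against the 10.1%. Of the members called in both genotypes, Rpl12, Rpl22l1 and Rpl5 were not called in mKO mice without unloaded mKO replicate 1. Their edgeR adjusted p was 0.0532, 0.0683 and 0.0595. The calls of Rpl10a, Rps18 and Rpl23 ended in 15, 15 and 24 of 30 fits that left out 1 library.

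The 2 unloading comparisons share no mice, but both lists of calls come from the same fit to all libraries, with a shared estimate of spread. Of the members that rose in controls, 7 of 8 (87.5%) also rose in mKO mice, which is 38.9% of the 18 that rose there, and Rpl9 was the exception. Among all genes tested, 486 rose in both, 53.4% of those that rose in controls and 54.2% of those that rose in mKO mice. A value above 0 in both comparisons was found for 71 of the 84 members. The larger number of calls in mKO mice is not a tested difference. The interaction of genotype and unloading called 0 members and 0% of all genes by edgeR's quasi-likelihood test, DESeq2 and limma also called 0 members, and no member had an unadjusted p below 0.05, where 2.42% of all genes did. Its median over the members was 0.08 on the log2 scale, against -0.02 over all genes. The smallest interaction p belonged to Rps13 (0.42 ± 0.21, SE) and Rpl3 (-0.55 ± 0.28, SE), both with an edgeR adjusted p of 0.999. Rpl37 (0.34), Rpl38 (0.34) and Rpl23 (0.29) followed.

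**Figure D2:**
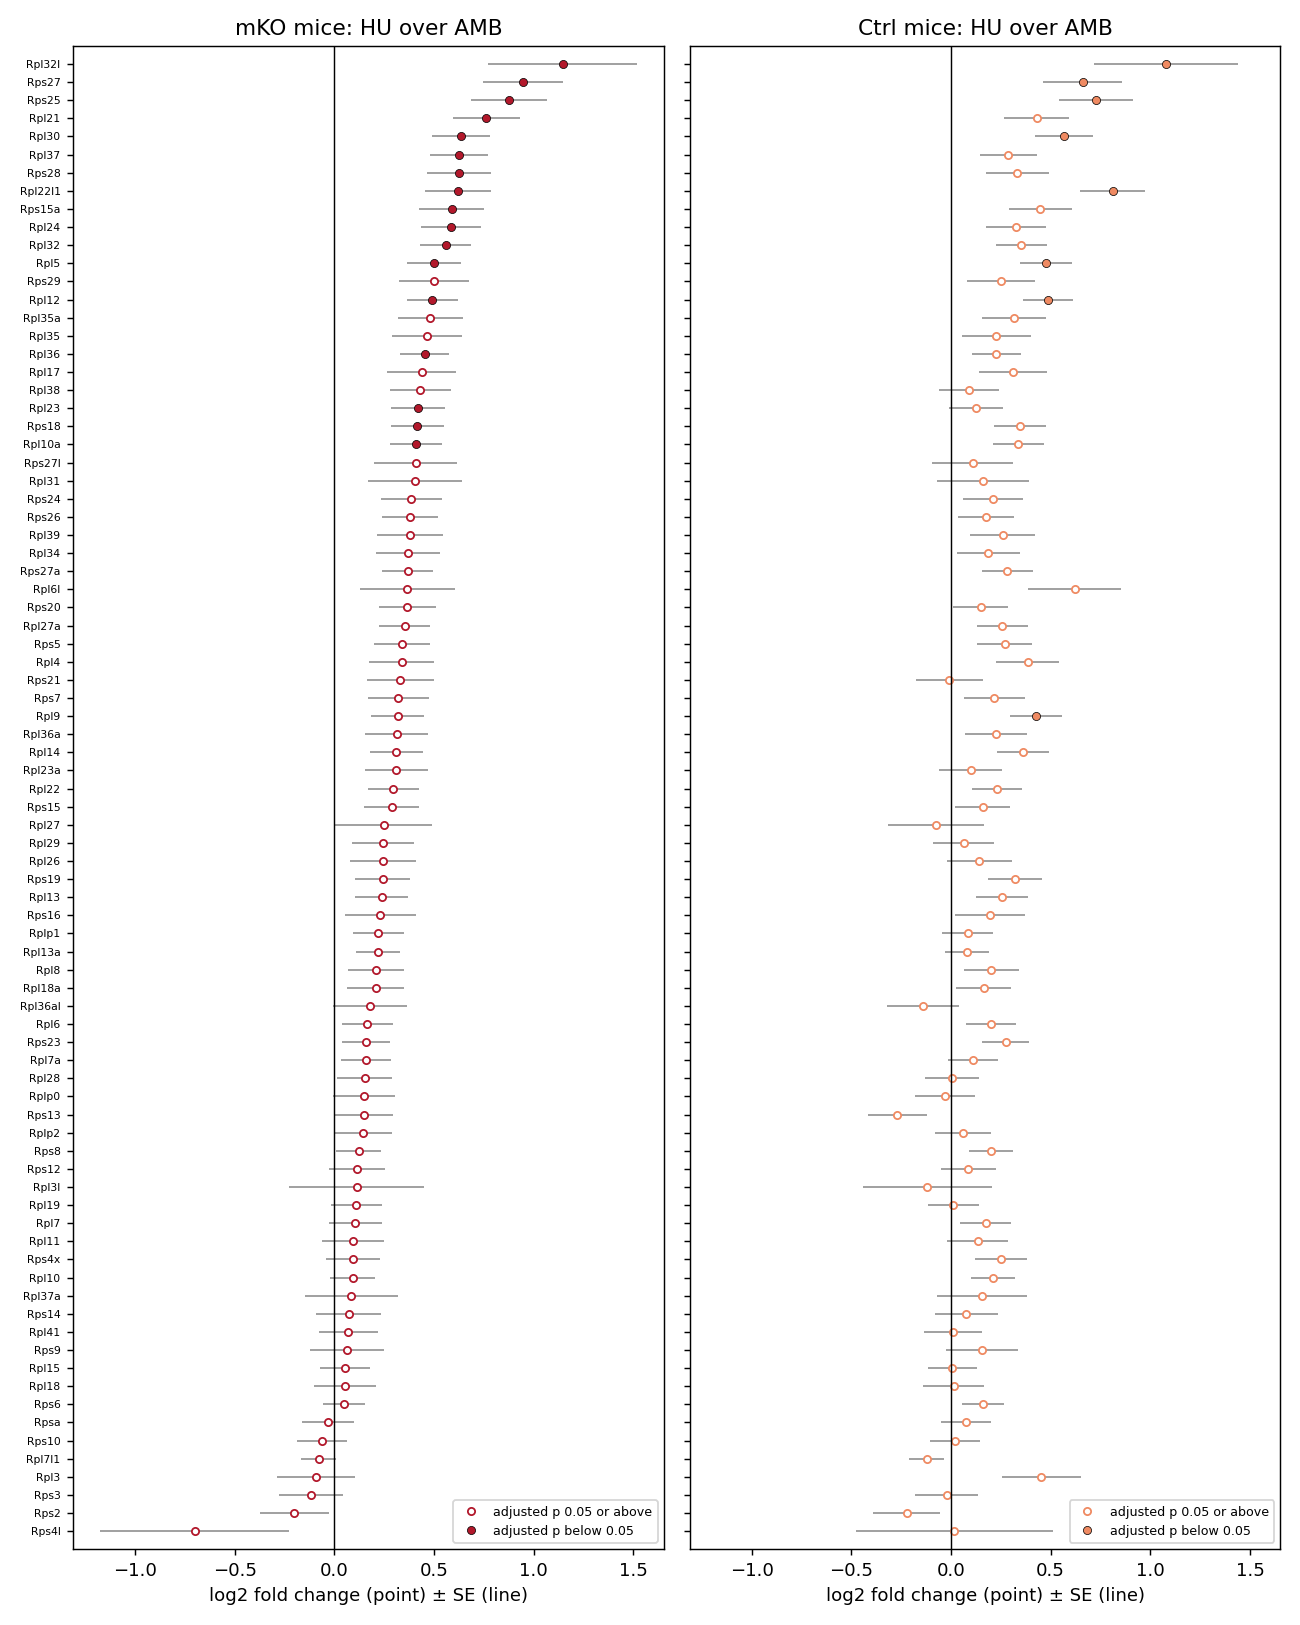
Log2 fold change of the members reported here under hindlimb unloading, unloaded (HU) over ambulatory (AMB), in mKO mice (left) and controls (right), with the standard error as a line and called members filled. Members run down the page by their value in mKO mice. Most points lie right of 0, and no called member lies left of it.

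Rps27, a small-subunit protein with a zinc finger, showed the highest rise among well-expressed members in mKO mice. Its level was 87.4 to 190 CPM (median 126) in unloaded mKO mice, against 35.1 to 81.6 CPM (median 72.4) in ambulatory mKO mice. The groups did not overlap, and the log2 change was 0.94 ± 0.20 (SE, edgeR adjusted p = 0.00429). Non-overlapping groups were seen for 3 members in this comparison and for 1.51% of all genes. In controls Rps27 held 83.1 to 139 CPM (median 129) in unloaded and 41.9 to 104 CPM (median 71.8) in ambulatory mice, which overlapped, with a log2 change of 0.66 ± 0.20 (SE, adjusted p = 0.028). That call ended in 7 of 30 fits without 1 library, those without unloaded controls 1, 2, 5 or 6 or ambulatory controls 5, 6 or 7 (adjusted p 0.0514 to 0.0772). Its paralogue Rps27l, known in human cells as a target of p53, did not pass, with log2 changes of 0.41 ± 0.21 in mKO mice and 0.11 ± 0.20 in controls (SE).

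Rps25, a small-subunit protein needed for translation from several viral internal ribosome entry sites, held 137 to 266 CPM (median 186) in unloaded mKO mice and 46.4 to 129 CPM (median 115) in ambulatory mKO mice. The groups did not overlap (log2 change 0.88 ± 0.19, SE, edgeR adjusted p = 0.00518). In controls it held 131 to 227 CPM (median 188) in unloaded and 68.4 to 140 CPM (median 116) in ambulatory mice, where the lowest unloaded mouse lay below the highest ambulatory one. The log2 change there was 0.73 ± 0.19 (SE, edgeR adjusted p = 0.0123). Both genes carry the pyrimidine runs shown above.

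Rpl22l1, the paralogue of Rpl22, had the smallest p of the members in controls. Its level was 14.0 to 30.1 CPM (median 18.6) in unloaded controls and 8.77 to 13.2 CPM (median 11.3) in ambulatory controls. All 7 unloaded mice lay above all 8 ambulatory ones (log2 change 0.81 ± 0.16, SE, edgeR adjusted p = 0.00169). In mKO mice it held 11.99 to 27.2 CPM (median 14.8) under unloading and 9.84 to 13.7 CPM (median 11.0) in ambulatory mice, with some overlap (log2 change 0.62 ± 0.16, SE, edgeR adjusted p = 0.0172). Rpl22 itself, an RNA-binding protein known in mice to repress Rpl22l1, held 63.4 ± 14.0 and 51.7 ± 6.93 CPM in unloaded and ambulatory mKO mice and 57.0 ± 6.70 and 48.5 ± 4.71 CPM in unloaded and ambulatory controls (SD). It did not pass, with log2 changes of 0.30 ± 0.13 in mKO mice and 0.23 ± 0.13 in controls (SE, adjusted p = 0.13 and 0.24). The difference between the pair was not tested.

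Rpl5 binds the 5S ribosomal RNA and, when not in a ribosome, the p53 regulator Mdm2. It held 169 to 237 CPM (median 205) in unloaded controls and 121 to 168 CPM (median 144) in ambulatory controls, without overlap (log2 change 0.48 ± 0.13, SE, edgeR adjusted p = 0.0181). In mKO mice the ranges were 133 to 258 CPM and 104 to 157 CPM and overlapped (0.50 ± 0.13, SE, adjusted p = 0.0177). Rpl9, a large-subunit protein, was the third member whose groups did not overlap in controls, with 152 to 200 CPM under unloading and 105 to 151 CPM in ambulatory mice (0.43 ± 0.13, SE, adjusted p = 0.033). Non-overlapping groups were seen for 3.56% of all genes in that comparison. In mKO mice Rpl9 did not pass (0.32 ± 0.13, SE, edgeR adjusted p = 0.12), and in controls the call ended in 8 of 30 fits without 1 library, the same 7 and that without ambulatory control 4.

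Rpl12, a protein at the base of the stalk, held 165 ± 31.5 CPM in unloaded and 119 ± 13.0 CPM in ambulatory mKO mice, and 172 ± 23.3 CPM in unloaded and 122 ± 19.5 CPM in ambulatory controls (SD). Rpl30, a large-subunit protein that also binds selenoprotein mRNAs, held 112 ± 25.7 and 72.9 ± 12.8 CPM in unloaded and ambulatory mKO mice and 112 ± 13.4 and 75.4 ± 14.7 CPM in unloaded and ambulatory controls. Both rose in both genotypes, by 0.49 to 0.64 on the log2 scale, and their groups overlapped each time. The others called in mKO mice rose by 0.41 to 0.76, Rpl32l apart. Rpl21 was the highest of these, with 121 ± 25.9 CPM in unloaded and 71.6 ± 15.6 CPM in ambulatory mKO mice (0.76 ± 0.17, SE, edgeR adjusted p = 0.00518), and in controls its value was 0.43 without a call. Rpl32 held 132 ± 27.6 CPM in unloaded and 90.1 ± 10.7 CPM in ambulatory mKO mice (0.56 ± 0.13, SE, adjusted p = 0.00713). Rpl37 held 83.2 ± 21.2 and 55.5 ± 8.49 CPM in the same groups (0.63 ± 0.15, SE, adjusted p = 0.00729). All 3 are large-subunit proteins, and their groups overlapped.

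**Figure D3:**
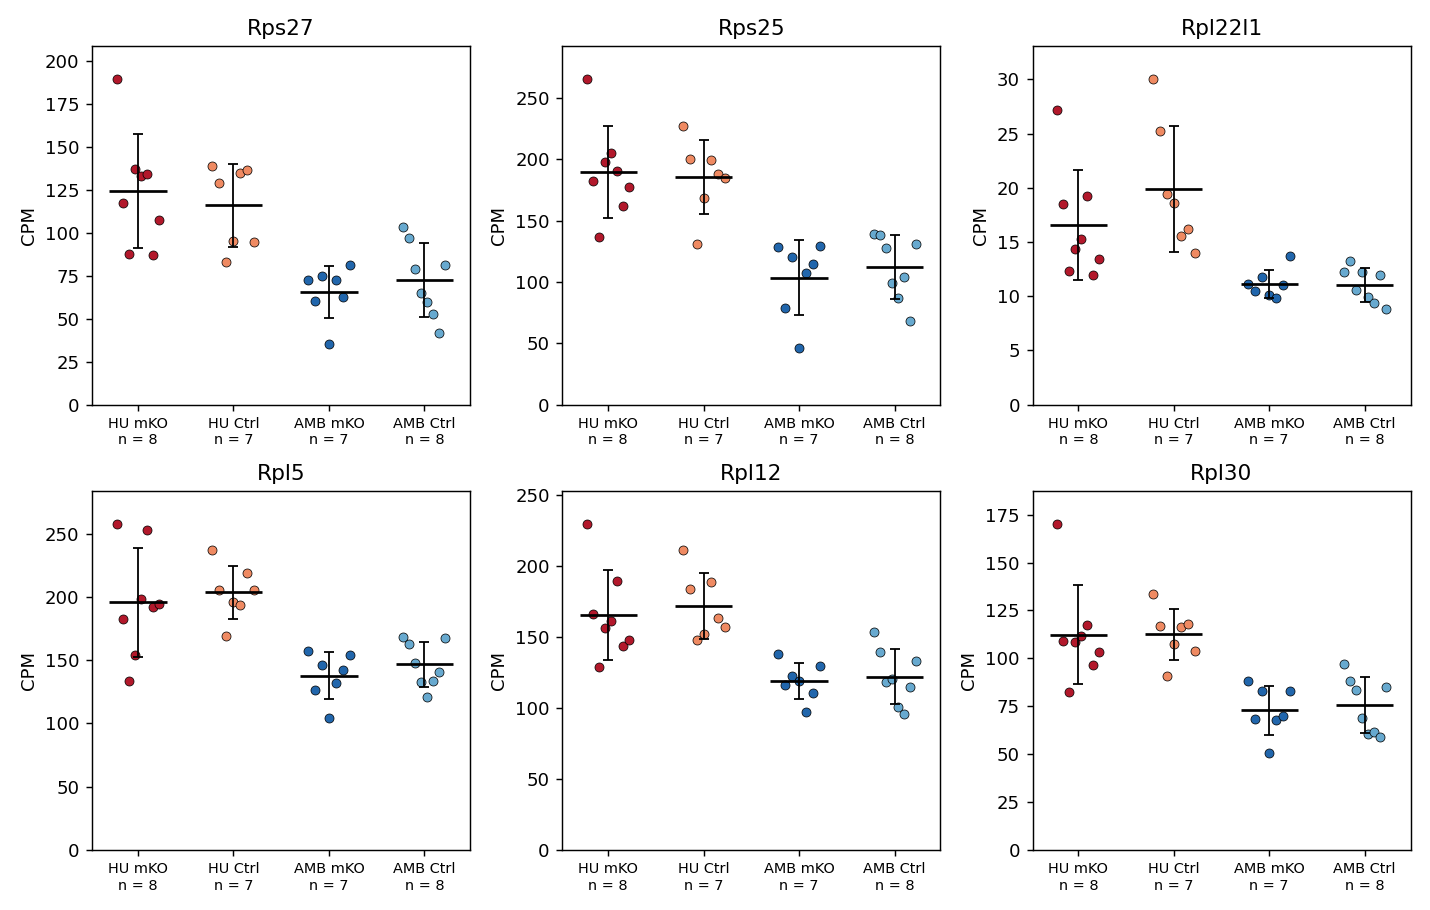
CPM of 6 members called under unloading in both genotypes, 1 point per mouse, with the group mean (bar) and SD (whiskers). In each panel the means of the 2 unloaded (HU) groups stand above those of the 2 ambulatory (AMB) groups, and the genotypes lie close together within each treatment.

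Rpl32l had the highest fold of all and the least counts behind it. It held 0.411 to 1.25 CPM in unloaded mKO mice and 0.133 to 0.383 CPM in ambulatory mKO mice, which did not overlap, and 0.264 to 0.832 CPM in unloaded and 0.0623 to 0.58 CPM in ambulatory controls, which did. These levels rest on 1 to 17 counts per library. The adjusted p was 0.0481 in mKO mice and 0.0493 in controls (log2 changes 1.14 ± 0.37 and 1.08 ± 0.36, SE). Leaving out 1 library ended the call in 23 of 30 cases in mKO mice and in 21 of 30 in controls. The other paralogues, Rpl7l1, Rpl36al, Rpl6l and Rps4l, did not pass in any comparison. Under unloading Rpl6l had log2 changes of 0.37 ± 0.24 in mKO mice and 0.62 ± 0.23 in controls, beside 0.17 ± 0.13 and 0.20 ± 0.12 for its parent Rpl6 (SE). Rpl36al had 0.18 ± 0.18 and -0.14 ± 0.18, beside 0.31 ± 0.16 and 0.23 ± 0.16 for Rpl36a. Rpl7l1 had -0.08 ± 0.09 and -0.12 ± 0.09, beside 0.11 ± 0.13 and 0.17 ± 0.13 for Rpl7. Rps4l had -0.70 ± 0.47 and 0.02 ± 0.49, beside 0.09 ± 0.13 and 0.25 ± 0.13 for Rps4x, with the mKO value first each time. None of these parents passed either. Per kilobase each parent was the more abundant, with 69.2 CPM for Rpl36a against 16.4 for Rpl36al, 226 for Rpl7 against 9.86 for Rpl7l1 and 275 for Rps27 against 40.8 for Rps27l. Rpl3l was the exception. Rps4l had an SD within groups of 0.73 on the log2 scale, second to Rpl3l with 0.84, and the next were Rpl27 with 0.54 and Rpl31 with 0.50.

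Rpl3l was the more abundant of the Rpl3 pair in 29 of 30 mice and was not called in any comparison. It held 144 to 358 CPM (median 306) in unloaded mKO mice, 157 to 322 (median 286) in unloaded controls, 17.9 to 380 (median 332) in ambulatory mKO mice and 195 to 426 (median 269) in ambulatory controls. The groups overlapped throughout, and the lowest value belonged to the adipocyte-rich ambulatory mKO replicate 2, next to 243 CPM in the lowest of the other 6. Rpl3 held 62.2 to 102 CPM (median 74.3) in unloaded mKO mice, 67.2 to 120 (median 89.5) in unloaded controls, 55.3 to 197 (median 64.1) in ambulatory mKO mice and 58.3 to 86.0 (median 69.3) in ambulatory controls. Its highest value was again that of ambulatory mKO replicate 2. Per kilobase, Rpl3l made up 75.9% ± 10.1 of the pair in unloaded mKO mice, 73.4% ± 8.68 in unloaded controls, 72.9% ± 28.7 in ambulatory mKO mice and 79.1% ± 5.85 in ambulatory controls (SD). In ambulatory mKO replicate 2 the share was 8.19%, and in the other 6 mice of that group it was 83.7% ± 3.32.

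The log2 ratio of Rpl3l to Rpl3 was not separated between groups by a two-sided permutation test, with p adjusted over 5 comparisons. The difference was -0.42 ± 0.87 (SE) for mKO minus control in ambulatory mice and 0.23 ± 0.36 in unloaded mice, both with adjusted exact permutation p = 0.90. For unloaded minus ambulatory it was 0.20 ± 0.89 in mKO mice and -0.45 ± 0.29 in controls, with adjusted exact permutation p of 0.90 and 0.74. The interaction, tested with 100000 random permutations, was 0.65 ± 0.94 (adjusted permutation p = 0.90). A single mouse set 3 of these signs. Without ambulatory mKO replicate 2 the ambulatory genotype difference was 0.42 ± 0.23, the unloading difference in mKO mice -0.64 ± 0.31 and the interaction -0.19 ± 0.43, with adjusted permutation p of 0.25, 0.25 and 0.71, exact for all but the interaction. The ratio thus had a lower mean in unloaded than in ambulatory mice of both genotypes once that library was left out, and the test did not separate them.

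Of the pair, Rpl3 was the one with the larger unloading value in controls, 91.1 ± 16.1 CPM in unloaded against 69.5 ± 10.2 CPM in ambulatory mice (log2 change 0.45 ± 0.20, SE, edgeR adjusted p = 0.13). It passed the test without the 3 adipocyte-rich libraries (0.38, adjusted p = 0.0286), with the 2 control groups fitted alone (0.45, adjusted p = 0.0157), by limma with library weights (0.35, adjusted p = 0.0252) and without ambulatory mKO 2 and 4 and control 7 (0.40, adjusted p = 0.049). In mKO mice its value was -0.09 ± 0.20 with all libraries and 0.21 without the 3, neither called. Rpl3l had log2 changes of -0.12 ± 0.32 in controls and 0.11 ± 0.34 in mKO mice (SE), and both signs turned without ambulatory mKO 2 and 4 and ambulatory control 7.

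**Figure D4:**
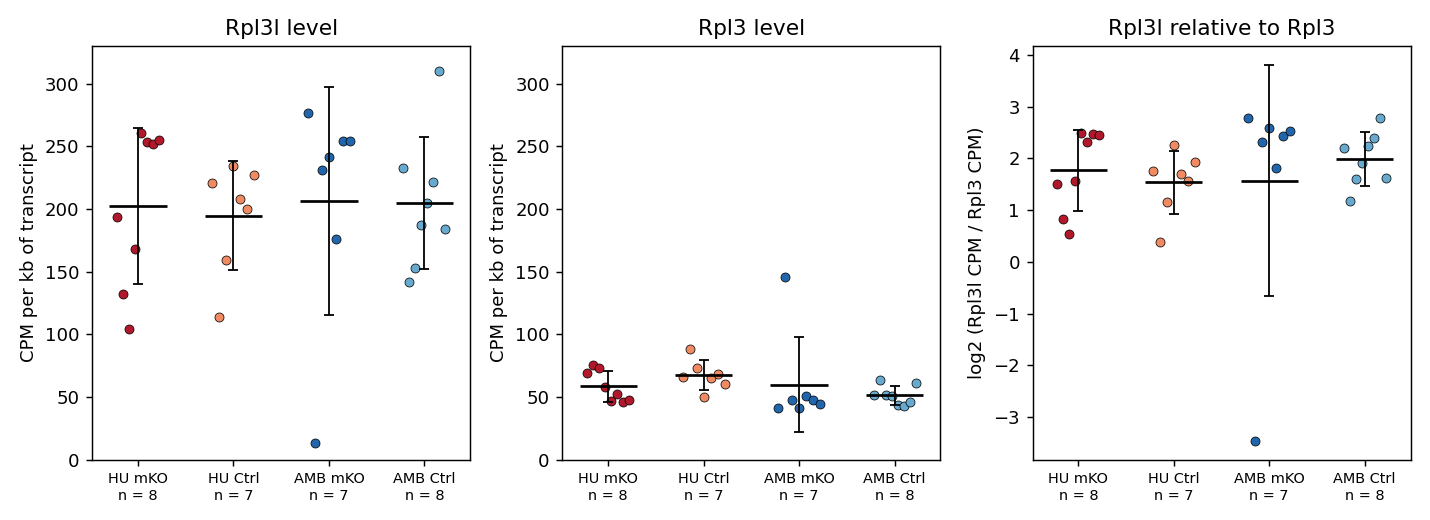
Levels of Rpl3l and Rpl3 (CPM per kb) and the log2 ratio of their CPM in each mouse, with the group mean (bar) and SD (whiskers). Rpl3l exceeds Rpl3 in all mice but ambulatory mKO replicate 2, the point near -3.5 on the ratio axis.

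Ambulatory mKO replicate 4 and ambulatory control replicate 7 stood apart in the pattern of the members rather than in their sum. The SD over the 84 members of the distance to each member's own median was 0.74 in ambulatory mKO replicate 4, 0.44 in ambulatory control replicate 7, 0.62 in ambulatory mKO replicate 2 and 0.10 to 0.29 in the other 27 libraries (log2 of CPM plus 0.5). Both libraries were low in the same 19 members and high in the same 5 by more than 0.5, and none went opposite ways. Rpl27 held 12.4 CPM in ambulatory mKO replicate 4, with 50.04 to 77.4 CPM in the rest of its group, and Rpl31 held 20.4 against 68.9 to 105 CPM. Rps25, Rpl21 and Rps27 were also low in both mice, and Rpl37a, Rps9 and Rps3 were high. Ambulatory mKO replicate 4 was the highest library in summed fibroblast markers, with 16996 CPM, while ambulatory control replicate 7 held 3170 CPM.

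These 2 libraries lie in the ambulatory groups and were low in several members that rose under unloading. Without them, 15 members rose in mKO mice, where 8.44% of all genes were called in either direction, and 8 in controls, where 9.15% were, and the medians were 0.23 and 0.18. Rps27 then rose by 0.84 in mKO mice and 0.53 in controls, and Rps25 by 0.75 and 0.61, with edgeR adjusted p of 0.00396, 0.0418, 0.00283 and 0.00852. Leaving out ambulatory mKO replicate 2 as well gave 15 in each genotype, with 12.4% of all genes called in mKO mice and 13.9% in controls. The 7 members called in both genotypes remained called in both without these 3 libraries, Rpl32l excepted, with adjusted p of 0.0952 in mKO mice and 0.0575 in controls.

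**Figure D5:**
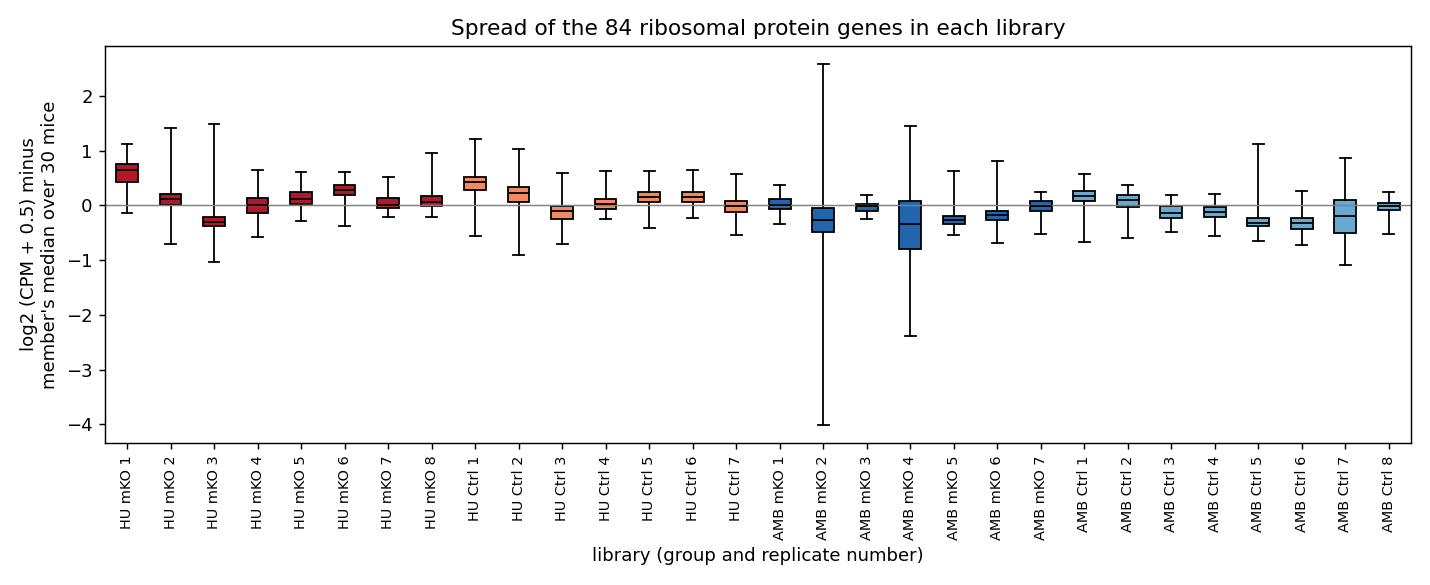
Distance of the 84 members from their own median over 30 mice, on the log2 scale, by library (box, quartiles; line, median; whiskers, lowest and highest member). The boxes of ambulatory (AMB) mKO 4 and control 7 are the widest, and ambulatory mKO 2 has the longest whiskers, reaching -4.01 for Rpl3l and 2.58 for Rps4l.

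The sample titles end in a letter, a, b or c, that the labels do not explain, and each group holds all 3 letters with 2 or 3 mice each. Within letters a, b and c, the median difference of the members between unloaded and ambulatory mice was 0.37, 0.18 and 0.26 in mKO mice and 0.32, 0.17 and 0.14 in controls (log2 of CPM plus 0.5). It was above 0 in every one, with 60 to 79 members above 0. The genotype medians took both signs across the letters. With the letter as a covariate 27 members rose in mKO mice and 8 in controls, where 15.3% and 15.1% of all genes were called in either direction.

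Other gene groups of the translation machinery were measured beside the members. Among all genes 5.3% rose in mKO mice and 5.37% in controls, and each list that follows held 0 to 5 called genes in a comparison, so nothing is read from these counts about a list as a whole. Rps3a1, Rack1 and Fau, ribosomal proteins outside the naming rule, were not called in any comparison. Of 76 tested ribosome assembly factors, 5 rose in mKO mice and 2 in controls and 0 fell, with medians of 0.09 and 0.05. Wdr43, needed for processing of the small-subunit RNA, rose in both (0.53 ± 0.13 in mKO mice and 0.44 ± 0.13 in controls, SE, edgeR adjusted p = 0.0124 and 0.0289). Taf1d, a subunit of the factor that starts ribosomal RNA transcription, rose in mKO mice, with 70.1 ± 13.2 CPM under unloading and 44.4 ± 13.1 CPM in ambulatory mice. Gnl2 and Rpf1, factors of the large subunit, rose in mKO mice by 0.43 and 0.45, and Rrp1b rose in controls by 0.34. Of 35 initiation factors, 3 rose in mKO mice (Eif4g3, Eif3e and Eif5) and 2 in controls (Eif3e and Eif5).

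Of 24 other transcripts known to carry a TOP motif, 1 rose in each genotype, Eif3e, a subunit of the initiation factor that binds the small subunit, and the medians were 0.16 and 0.10 in mKO mice and controls. Of 13 elongation and termination factors, Eef2k alone rose in each genotype, with 118 ± 29.9 and 77.7 ± 9.00 CPM in unloaded and ambulatory mKO mice and 114 ± 30.7 and 71.5 ± 15.5 CPM in unloaded and ambulatory controls. It encodes the kinase that inhibits elongation factor 2. A list of 14 genes held regulators of TOP mRNAs, kinases of ribosomal protein S6, and transcription factors of the Myc family and their partners. Of these 14, Rps6kb1, the S6 kinase, rose in controls (0.50 ± 0.16, SE, edgeR adjusted p = 0.0379). It had a value of 0.46 ± 0.16 without a call in mKO mice. Mtor and Larp1 did not pass. Of 10 genes of ribosome surveillance none was called. No gene of these lists was called between genotypes.

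A few markers of cell composition were called under unloading, and most were not. Of 6 fibroblast markers, Col1a1 and Col3a1 fell in both genotypes, and the summed level of the 6 was 534 to 1518 CPM in unloaded mKO mice and 556 to 3324 in unloaded controls, against 909 to 16996 CPM in ambulatory mKO mice and 918 to 7248 in ambulatory controls. The other fibroblast markers were not called, and over all 6 the values were above 0 for 1 and below 0 for 5 in mKO mice (median -0.82) and above 0 for 3 and below 0 for 3 in controls (median 0.015). Of 6 endothelial markers Kdr fell in both genotypes and no other was called, with 4 values above 0 and 2 below in mKO mice (median 0.021) and 1 above and 5 below in controls (median -0.35). Of 6 satellite cell markers Vcam1 fell in mKO mice and none was called in controls, with 3 values above 0 and 3 below in mKO mice (median 0.26) and 1 above and 5 below in controls (median -0.23). Of 6 fibre-type genes, the fast oxidative myosin Myh2 fell and the fast myosin Myh1 rose in both. None of 8 adipocyte, 8 macrophage, 6 skeletal muscle, 6 Schwann cell or 6 red blood cell markers was called under unloading. No marker of these lists was at 0 in all mice of a group, and Lep alone was at 0 in some mouse. Whether cell composition had a part in the rise of the called ribosomal protein genes was not tested.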

How the data were processed

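Directional libraries (NEB Ultra II) of soleus RNA, 1 per mouse, were read on a NovaSeq, per the labels' protocols. The authors deposited 1 table of raw counts per gene and mouse. Per the submitters' processing notes the tools included STAR 2.7.9a, featureCounts 1.6.3, cutadapt 1.16 and DESeq2 1.34.0, with the builds GRCm39 and mm39. How strand and reads with several matches were treated, and which annotation release was used, are points not given in these sources.

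The deposited counts were fitted with edgeR 4.0.16 (quasi-likelihood test, TMM scaling) in R 4.3.3, with 4 groups and sex as a covariate, over the 16932 genes that edgeR's filterByExpr kept by group, and p-values were adjusted by Benjamini-Hochberg over those genes. All 84 members passed this filter. Precision rests on the spread between mice and, for members with few counts, also on the 12.1 to 20.9 M counts per library. The edgeR p-values set a difference against the spread estimated between these mice. The Rpl3l to Rpl3 ratio was tested by permutation. Neither that test nor the medians within title letters took account of sex, which is not evenly spread over the groups. Lengths came from GENCODE M21 and start sites from RefSeq on GRCm38.p6, matched by gene name only. The edgeR fit alone was tested on simulated counts, with known changes placed in the unloaded controls. Some genes that entered the fits and counts are not reported here by name or in the plot of single members.

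Members and gene lists were chosen with earlier results of these data known. Named with values were Rpl3l and Rpl3, the paralogues and their parents, the 4 highest and 4 lowest members, the 4 with the largest spread within groups, the called members (the 6 with the smallest p where over 12 were called) or, where fewer than 5 were called, the 5 with the smallest p, and up to 4 called genes of each list. Alternatives were median-of-ratios scaling, DESeq2 1.42.0, limma 3.58.1 (voom with library weights), other low-count filters, other covariates, the compared groups alone, pseudogene counts added, each library left out and 3 adipocyte-rich libraries left out. Leaving out ambulatory mKO 4 and control 7, with or without ambulatory mKO 2, and leaving out the pseudogene members were chosen after seeing the data.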

Additional observations from a re-analysis of the deposited data

Results flagged for a closer look

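Within the 4 groups, 156 sets of values were screened for a mouse far from the rest of its group (Dixon's criterion), and 23 met it. Chance gives about 1 in 20 for a single set chosen beforehand. Here the sets share libraries, and some genes were screened for their large spread within groups. The 23 are therefore not set against that rate. Ambulatory mKO replicate 4 gave 7 of them: Rpl10a at 162 CPM against 90.6 to 110 in the other mice of the group, Rpl21 at 39.0 against 66.4 to 84.9, Rpl27 at 12.4 against 50.04 to 77.4, Rpl31 at 20.4 against 68.9 to 105, Rpl6l at 1.82 against 0.632 to 1.13, Rpl9 at 72.9 against 125 to 150, and Rps14 at 369 against 164 to 217. Ambulatory control replicate 7 held 615 CPM of Rps2 against 326 to 462, and 355 CPM of Rps4x against 203 to 272.

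Ambulatory mKO replicate 2 held 197 CPM of Rpl3 against 55.3 to 69.0, 17.9 CPM of Rpl3l against 243 to 380 and 9.91 CPM of Rps4l against 1.07 to 2.92, and its log2 ratio of Rpl3l to Rpl3 was -3.46 against 1.81 to 2.78. It also held 59.4 CPM of Eef1a2, the elongation factor of muscle, and 1829 CPM of Eef1a1, its counterpart in most other tissues, against 405 to 2088 and 396 to 1022 CPM in the other 29 mice.

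Unloaded mKO replicate 1 was high in 6 members: Rpl30 at 170.3 CPM against 82.5 to 117, Rpl31 at 158 against 76.7 to 114, Rplp1 at 329 against 159 to 231, Rps14 at 336 against 171 to 244, Rps15a at 180.3 against 86.1 to 129, and Rps28 at 146 against 69.5 to 95.8. Unloaded control replicate 1 held 135 CPM of Rpl36 against 89.7 to 103 and 183 CPM of Rps18 against 118 to 144. Unloaded mKO replicate 8 held 1.25 CPM of Rpl32l against 0.411 to 0.746, and ambulatory control replicate 5 held 3.30 CPM of Rps4l against 0.757 to 1.81.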

How the results depend on the processing

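For the genotype comparisons and the interaction, the count of called members was 0 under each alternative run. The number called under unloading moved more. In controls 8 were called, against 31 by limma with library weights, 16 with the 2 compared groups alone, 13 without the 3 adipocyte-rich libraries, 15 without ambulatory mKO 2 and 4 and control 7, and 5 to 14 with 1 library left out. In mKO mice 18 were called, against 10 with the 2 compared groups alone and 8 to 26 with 1 library left out. The other alternatives gave 6 to 10 in controls and 13 to 27 in mKO mice, the 27 with the title letter as a covariate. The share of all genes called can move with the fit too, so nothing is read from these counts alone about the members. The log2 ratio of Rpl3l to Rpl3 turned sign for mKO against control in ambulatory mice (0.42 without the 3 adipocyte-rich libraries, 0.50 without ambulatory mKO 2 and 4 and control 7), for unloading in mKO mice (-0.28 and -0.60) and for the interaction (-0.27 without ambulatory mKO 2 and 4 and control 7). With 1 library left out it ranged over -0.62 to 0.42 for the ambulatory genotype difference, 0.042 to 0.41 for the unloaded one, -0.64 to 0.40 for unloading in mKO mice, -0.57 to -0.26 for unloading in controls and -0.19 to 0.85 for the interaction. Single values that turned sign were all uncalled. Under limma they were, for mKO against control in ambulatory mice, Rpl3l 0.22 and Rpl3 -0.11; for unloading in controls, Rpl3l 0.060 and Rps4l -0.20; for unloading in mKO mice, Rpl3l -0.042 and Rpl3 0.19; and for the interaction, Rpl3l -0.10. Without the 3 adipocyte-rich libraries they were Rpl3l 0.17 and Rpl3 -0.18 for the ambulatory genotype difference and Rpl3l -0.024 and Rpl3 0.21 for unloading in mKO mice. Without ambulatory mKO 2 and 4 and control 7 they were Rpl3l 0.29 and Rpl3 -0.12 for the ambulatory genotype difference, Rpl3l 0.021 for unloading in controls, Rpl3l -0.19, Rpl3 0.31 and Rps4l 0.30 for unloading in mKO mice, and Rpl3l -0.21 for the interaction. With sex left out Rpl3l was 0.015 for the ambulatory genotype difference and -0.030 for unloading in mKO mice. For unloading in controls Rps4l was -0.016 by DESeq2 and -0.065 with the title letter, and Rps27l was -0.0038 without ambulatory mKO 4 and control 7. With 1 library left out, Rpl3l ranged over -0.36 to 0.16 and Rpl3 over -0.13 to 0.40 for the ambulatory genotype difference, Rpl3l over -0.15 to 0.36, Rpl3 over -0.22 to 0.33 and Rps4l over -0.94 to 0.17 for unloading in mKO mice, Rps4l over -0.23 to 0.37 for unloading in controls, and Rpl3l over -0.064 to 0.52 for the interaction. The sign turned without ambulatory mKO 2 in all of these but Rps4l in controls, where it turned in 14 fits. The cause was not tested. Of the single members, 28 values over 11 results lost their call and 5 over 2 results gained one under alternatives other than leaving out 1 library; with 1 library left out, 122 over 13 results lost it and 2 over 2 results gained one. Rpl32l rests on 1 to 17 counts per library, which limits its precision. No paired analysis was possible because the labels give no replicate numbers of their own and do not tie mice of different groups to each other.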
